A study of Mus musculus with 6 samples.

Results

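The genes described here build the machinery that turns electrical excitation of a muscle cell into calcium release, together with the genes that fill and guard its calcium store. They were chosen by name: 34 mouse symbols for triad channels, junctional proteins, calcium pumps and buffers, and, as a contrast of broader expression, store-entry and inositol trisphosphate (IP3) receptor genes. All 34 were found among the 55414 gene identifiers of the deposited count table, and 31 of them had enough reads to be tested. The study transfected C2C12 cells, a wild-type mouse myoblast line kept in medium with fetal bovine serum, with a control siRNA (siRNA-NC, called siControl here) or with an siRNA against USF2 (siRNA-USF2, called siUsf2 here) by lipid transfection. Each group has 3 libraries, and the labels give neither the time after transfection nor whether the libraries of a group came from separate cultures, so p-values here reflect only variation among these samples, possibly technical. USF2, upstream stimulatory factor 2, is a widely expressed transcription factor that recognises E-box DNA through a basic helix-loop-helix domain. The comparison asks which genes differ when it is knocked down.

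In skeletal muscle, a voltage sensor in the transverse tubule, a fold of the plasma membrane, touches a calcium release channel in the facing sarcoplasmic reticulum. When the sensor moves, the channel opens and stored calcium reaches the contractile filaments, after which pumps return it to the store, where luminal proteins hold it. Myoblasts hold little of this apparatus, and it is assembled once they stop dividing and join into myotubes. Most cell types instead release calcium through IP3 receptors and refill the store through STIM sensors and ORAI channels.

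Library totals were 14790997 to 17715250 counts in 5 libraries and 3414565 in the library labelled siUsf2 3. Usf2 itself stood at 26.2, 31.2 and 23.0 CPM (counts per 1000000 counts of the library) in siControl 1 to 3, while siUsf2 1 and 2 held 17.1 and 15.3 CPM and the library labelled siUsf2 3 held 30.8 CPM. Its level in that library lay within the siControl range, on 105 counts (95% counting interval 25.2 to 37.2 CPM). A lower Usf2 level was therefore not seen there, and the places of other genes in that library are given below. Pseudogenes took 0.974% of the counts there, against 14.0% to 15.3% in the other libraries. That library is therefore shown apart: fold changes below compare siUsf2 1 and 2 with siControl 1 to 3 (5 libraries) unless the text says all 6 libraries. Levels in CPM do not include the edgeR scaling factor (TMM), which was 1.04 in that library and 0.982 to 0.994 in siControl in the 6-library fit. A place of that library just above or below siControl in CPM can therefore change with scaling. The myoblast and muscle precursor markers summed to 3529 to 4030 CPM in siControl and to 2750 and 2868 CPM in siUsf2 1 and 2. Their sum in the library labelled siUsf2 3 was 3668 CPM, within the siControl range. Des was the largest of them, at 1444 CPM on average in siControl. By the test given below, 6 of these 8 markers were lower in siUsf2 1 and 2, where 6.4% of all genes tested were. Myf5 was higher (log2 fold change 0.37, edgeR adjusted p = 0.0325, against 4.97% of all genes) and Pax7 did not pass (-0.03). The macrophage and endothelial lists summed to 4.19 CPM or less in siControl and 4.69 CPM or less in siUsf2.

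In the 5 libraries, 19 of the 31 tested genes fell, 2 rose and 10 missed the threshold (edgeR quasi-likelihood test, Benjamini-Hochberg adjusted p below 0.05 over 17217 genes), with 11 of the 19 down at least 2-fold. Over all genes tested, 6.4% were called lower and 4.97% higher. The number higher was 5 without siControl 3 and 0 without either siUsf2 1 or siUsf2 2. The median log2 fold change was -0.54 over the 31 genes and -0.01 over all genes. The decreases sat mainly in the muscle-type genes, a class set from textbook knowledge but with earlier results of these data known. Of its 18 members, 15 were tested and 14 fell, with a median of -1.23, while the 1 that did not pass, Casq1, was near the limit of detection. Of the 16 members expressed in many cell types, all were tested, 5 fell, 2 rose and 9 did not pass, with a median of -0.15. No test of the difference between these classes was made.

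Levels of siUsf2 1 and 2 both lay below every siControl library for 23 of the 31 genes and both above for 6, where the same holds for 19.5% and 21.8% of all genes tested. Genes of muscle differentiation moved with these changes. The sum of 10 markers (Myog, Mymk, Mymx, Ckm, Acta1, Myh3, Tnnt3, Mybph, Klhl41 and Mef2c) spanned 3978 to 4241 CPM in siControl. It was 879 and 981 CPM in siUsf2 1 and 2, against 1768 CPM for the library labelled siUsf2 3. Of these markers, 9 of the 9 tested fell, where 6.4% of all genes tested did. Their part in the results below was not tested. In bulk RNA, fewer differentiated cells and less RNA per cell cannot be told apart. Markers defining cardiomyocytes were near 0: Myl7, Myl2 and Nppb had no count in any library, and the 6 cardiomyocyte markers summed to 4.60 to 5.59 CPM in siControl and to 5.50 and 5.83 CPM in siUsf2 1 and 2. Smooth muscle markers summed to 1858 to 1977 CPM in siControl, 1631 and 1726 CPM in siUsf2 1 and 2 and 2691 CPM in the library labelled siUsf2 3. Fibroblast markers summed to 414 to 432 CPM, then 497 and 491 CPM, with 1054 CPM in that library, and neuron markers to 37.0 to 39.5 CPM, then 50.6 and 54.4 CPM, with 46.0 CPM there. Acta2 made up most of the smooth muscle sum and did not pass, at 1808 CPM in siControl and 1571 CPM in siUsf2 1 and 2 on average, whereas Cnn1 rose from 0.973 to 4.15 CPM (edgeR adjusted p = 3.19e-04). Col1a1 was the called fibroblast marker, from 250 to 318 CPM (edgeR adjusted p = 0.0106). The other 3 tested did not pass (log2 fold change 0.05 for Pdgfra, -0.07 for Dcn and -0.59 for Lum). Stmn2 was the called neuron marker, from 34.2 to 47.8 CPM (edgeR adjusted p = 0.00358), and 2 did not pass (0.30 for Syt1 and -0.06 for Tubb3). The higher sums therefore do not show a rise across either list. The part of these lists was not tested either.

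**Figure D1:**
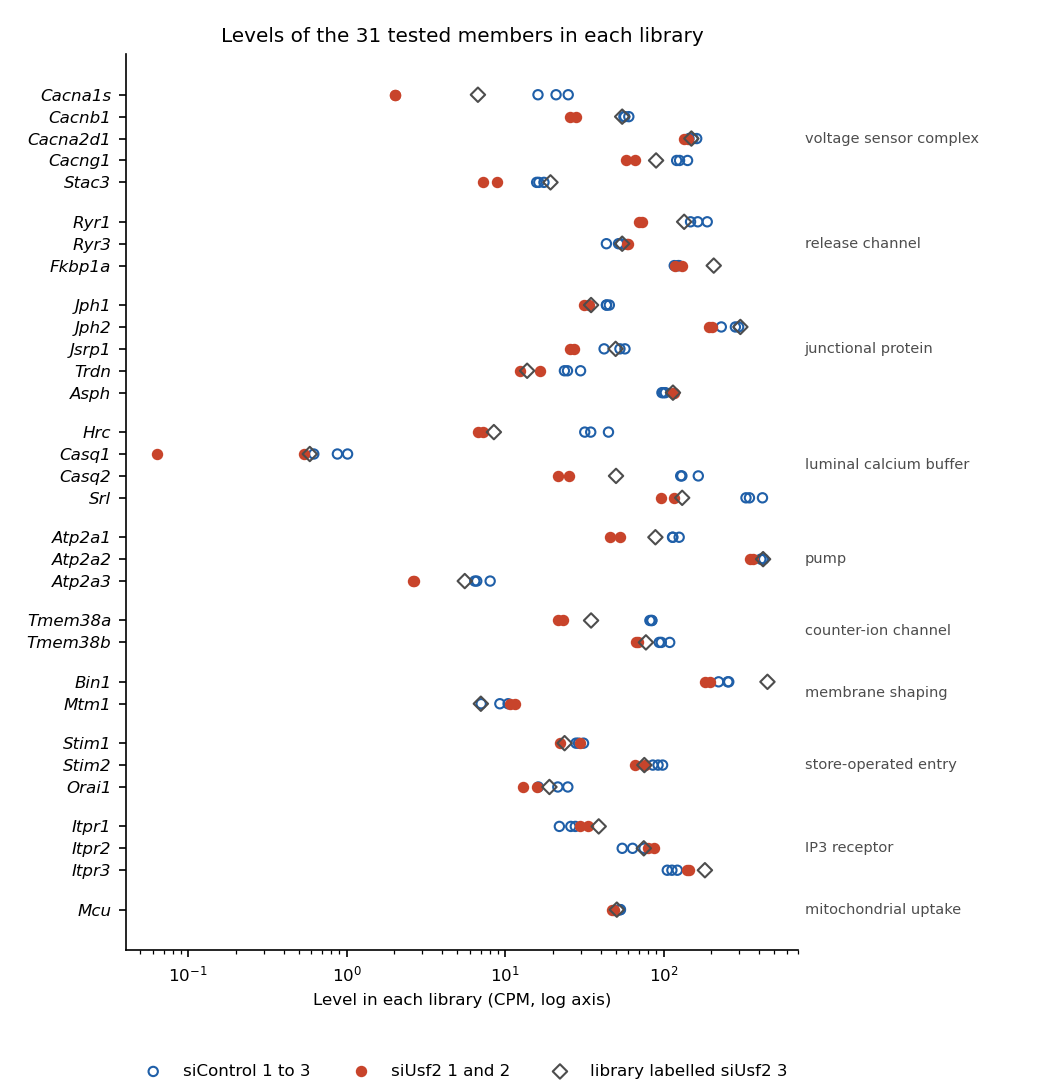
Level of each tested gene in each library, in CPM on a log axis, grouped by role; open circles are siControl 1 to 3, filled circles siUsf2 1 and 2, and diamonds the library labelled siUsf2 3. For Hrc, Casq2, Srl, Tmem38a and Cacna1s the filled circles sit well to the left of every open circle, while for the 3 IP3 receptor genes they sit to the right.

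The steepest relative decrease was in Cacna1s (ENSMUSG00000026407, chromosome 1, 136052750 to 136119822, GRCm38, plus strand), the pore-forming subunit of the skeletal muscle L-type calcium channel and the voltage sensor itself. It stood at 21.0, 16.1 and 25.0 CPM in siControl 1 to 3 and at 2.02 and 2.01 CPM in siUsf2 1 and 2. The library labelled siUsf2 3 held 6.74 CPM, between both groups. On the log2 scale it fell by 3.37 (SE 0.23, by edgeR with adjusted p = 1.01e-11), so 9.67% of the siControl level was left, and 0.0465% of all genes tested had a lower fold change.

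Other subunits of the same channel complex fell less or did not pass. Cacng1, its gamma subunit, stood at 121, 142 and 126 CPM in siControl, at 58.0 and 65.6 CPM in siUsf2 1 and 2 and at 89.6 CPM in the library labelled siUsf2 3 (log2 fold change -1.08, SE 0.10, edgeR adjusted p = 2.3e-09). Cacnb1, the beta subunit that carries the channel to the membrane, went from 60.3, 56.9 and 56.2 CPM to 27.9 and 25.5 CPM (log2 fold change -1.12, SE 0.11, edgeR adjusted p = 6.29e-09). Both genes separated siUsf2 1 and 2 from siControl without overlap, but the library labelled siUsf2 3 held 54.8 CPM of Cacnb1, just under the lowest siControl library. Stac3, an adaptor needed for coupling of the sensor to the release channel, was at 17.6, 16.3 and 15.8 CPM in siControl and at 8.91 and 7.23 CPM in siUsf2 1 and 2 (log2 fold change -1.05, SE 0.17, edgeR adjusted p = 6.55e-05). At 19.3 CPM, from 66 counts, the library labelled siUsf2 3 was above every siControl library for Stac3. Cacna2d1, the alpha2delta subunit shared with channels of other tissues, did not pass, at 145, 153 and 162 CPM against 134 and 143 CPM, with 150 CPM in the library labelled siUsf2 3 (log2 fold change -0.16, SE 0.09, edgeR adjusted p = 0.276).

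Within a library, the count of Cacna1s relative to Cacna2d1 was 0.145, 0.105 and 0.155 in siControl 1 to 3, but 0.0151 and 0.0140 in siUsf2 1 and 2, with 0.0450 for the library labelled siUsf2 3. The ratios did not overlap between groups. For this and 8 other pairs of related members, the difference of the log2 ratios was compared between groups by an exact permutation test over libraries, two-sided, whose smallest possible p is 0.1 with 3 libraries against 2 and with 3 against 3. This pair reached it (exact permutation p = 0.1, adjusted over the 9 pairs 0.225), with a difference in mean log2 ratio of -3.17.

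Among the release channels, Ryr1 and Ryr3 parted. Ryr1 (ENSMUSG00000030592, chromosome 7, 29003344 to 29125179, minus strand), the skeletal muscle ryanodine receptor, stood at 188, 148 and 164 CPM in siControl and at 69.8 and 73.3 CPM in siUsf2 1 and 2 (log2 fold change -1.23, SE 0.10, edgeR adjusted p = 4.24e-10). At 135 CPM the library labelled siUsf2 3 was below siControl but much nearer to it. Ryr3 (ENSMUSG00000057378, chromosome 2, 112631355 to 113217096, minus strand), a broadly expressed receptor found in developing muscle, stood at 51.9, 43.5 and 53.6 CPM in siControl, at 59.7 and 58.9 CPM in siUsf2 1 and 2 and at 54.8 CPM in the library labelled siUsf2 3. In CPM all 3 siUsf2 libraries were above siControl, the library labelled siUsf2 3 only just, and Ryr3 did not pass (log2 fold change 0.24, SE 0.10, edgeR adjusted p = 0.137). Leaving out siControl 3 was among the settings under which it passed (adjusted p = 0.0189). Ryr2, the cardiac receptor, had 5 counts in all: 0, 2 and 3 counts in siControl 1 to 3 and 0 in each siUsf2 library.

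The ratio of Ryr1 to Ryr3 counts was 3.63, 3.40 and 3.07 in siControl, but 1.17 and 1.24 in siUsf2 1 and 2, with 2.46 for the library labelled siUsf2 3. Scaled per kilobase of merged exons, Ryr1 was 3.15, 2.95 and 2.66 times Ryr3 in siControl and 1.02 and 1.08 times in siUsf2 1 and 2. In those libraries the pair went from a clear excess of Ryr1 to near equal levels. The library labelled siUsf2 3 kept an excess of Ryr1, at 2.14 times Ryr3. The difference in mean log2 ratio was -1.48 (exact permutation p = 0.1, adjusted 0.225). Annotated exons of Ryr3 overlap those of Aven on the opposite strand, and the strand setting of the counting is not given in the sources used here. Aven held 568 counts over the 6 libraries against 4425 for Ryr3.

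Fkbp1a, the immunophilin FKBP12 that binds and steadies the release channel, showed no difference that passed, at 117, 125 and 123 CPM in siControl and 118 and 130 CPM in siUsf2 1 and 2 (log2 fold change 0.01, SE 0.09, edgeR adjusted p = 0.949). Its 207 CPM in the library labelled siUsf2 3 came with 0 counts of its processed pseudogene Fkbp1a-ps1, which held 36.9% to 41.5% of the counts of gene and pseudogene together in the other 5 libraries. With the pseudogene added, levels were 191, 213 and 195 CPM in siControl, 193 and 207 CPM in siUsf2 1 and 2, with 207 CPM for the library labelled siUsf2 3, so the apparent excess there was no longer seen.

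Of 5 junctional proteins, 4 fell and 1 did not pass, with a median log2 fold change of -0.47 (over all genes tested, 6.4% fell). Jph1 and Jph2 are junctophilins, which tie the transverse tubule to the sarcoplasmic reticulum. Jph2 stood at 284, 297 and 231 CPM in siControl, 193 and 201 CPM in siUsf2 1 and 2 and 305 CPM in the library labelled siUsf2 3 (log2 fold change -0.47, SE 0.10, edgeR adjusted p = 0.00135). Jph1 was at 43.5, 43.7 and 45.4 CPM against 31.3 and 33.7 CPM, with 34.9 CPM in the library labelled siUsf2 3 (log2 fold change -0.46, SE 0.11, edgeR adjusted p = 0.00483). This call ended without siUsf2 1 (adjusted p = 0.144). The Jph1 to Jph2 ratio overlapped between groups, at 0.154, 0.147 and 0.197 in siControl and 0.162 and 0.167 in siUsf2 1 and 2 (exact permutation p = 1).

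Jsrp1 (JP-45), a junctional protein that binds both the voltage sensor and calsequestrin, went from 53.0, 57.0 and 42.1 CPM to 25.5 and 27.2 CPM (log2 fold change -0.96, SE 0.12, edgeR adjusted p = 2.25e-06). Trdn, triadin, which anchors calsequestrin to the release channel, went from 23.7, 24.7 and 29.9 CPM to 12.4 and 16.5 CPM (log2 fold change -0.87, SE 0.15, edgeR adjusted p = 2.12e-04). For Trdn the library labelled siUsf2 3, at 13.8 CPM, lay among siUsf2 1 and 2, whereas for Jsrp1, at 49.8 CPM, it lay within siControl. Asph, whose locus gives both junctin and a broadly expressed hydroxylase that gene counts do not separate, did not pass (97.6, 99.9 and 103 CPM against 117 and 115 CPM, with 115 CPM in the library labelled siUsf2 3, log2 fold change 0.20, SE 0.09, edgeR adjusted p = 0.148). Its settings that passed include leaving out siControl 3 (adjusted p = 0.0375).

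**Figure D2:**
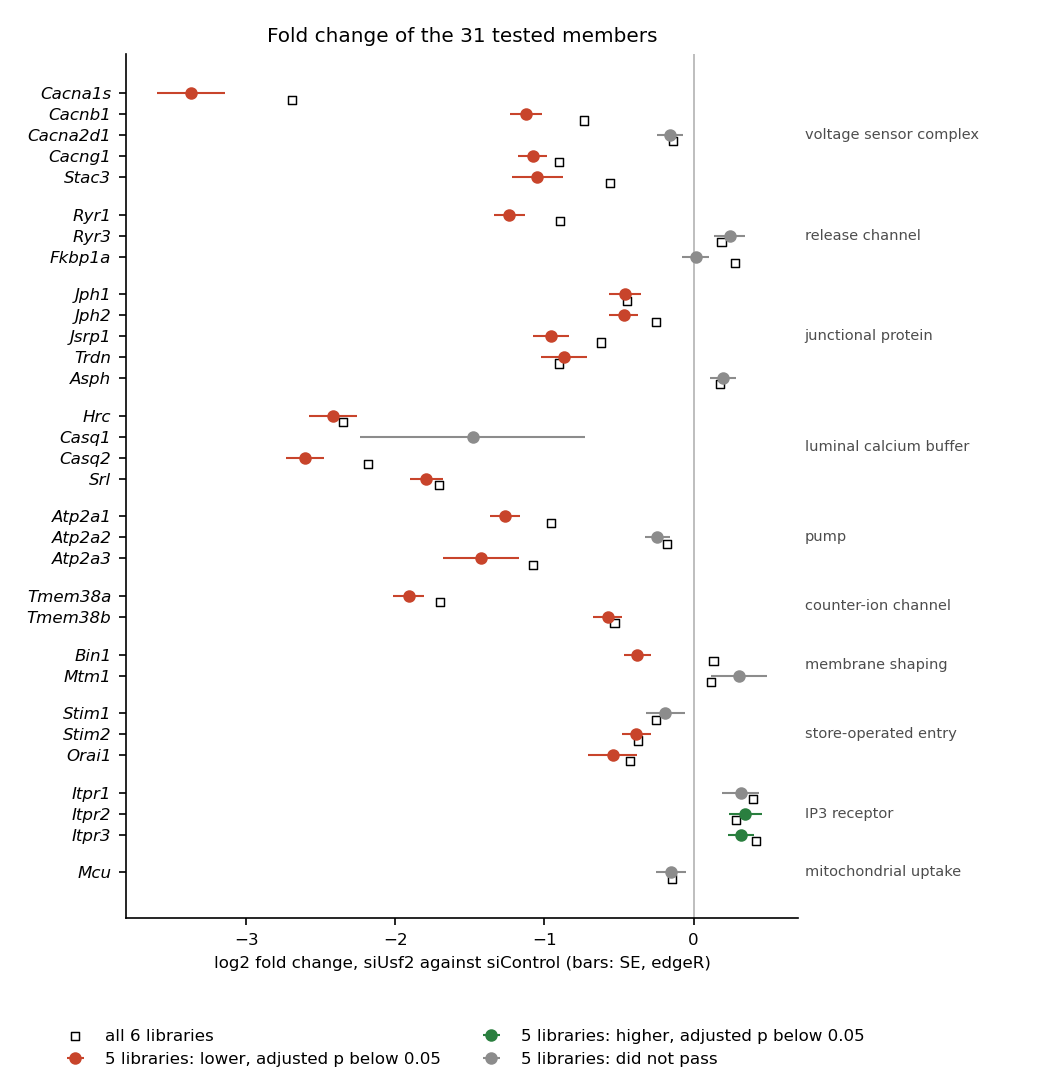
Log2 fold change of each tested gene, siUsf2 against siControl, with filled points and SE bars from edgeR on 5 libraries (red lower, green higher, grey not passed) and open squares from all 6. Points run from -3.37 (Cacna1s) to 0.35 (Itpr2), and the square lies nearer to 0 than the point for most of the genes called lower.

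Luminal calcium buffers made up the role with the deepest decreases: of 4 members, 3 fell and 1 did not pass, with a median log2 fold change of -2.10 (over all genes tested, 6.4% fell). Casq2 (ENSMUSG00000027861, chromosome 3, 102086415 to 102146514, plus strand), the cardiac and slow-fibre calsequestrin, stood at 130, 128 and 165 CPM in siControl, 21.5 and 25.4 CPM in siUsf2 1 and 2 and 50.1 CPM in the library labelled siUsf2 3 (log2 fold change -2.60, SE 0.13, edgeR adjusted p = 3.77e-13). Hrc (ENSMUSG00000038239, chromosome 7, 45335290 to 45338974, plus strand), the histidine-rich calcium-binding protein of the store, stood at 34.7, 31.8 and 44.9 CPM, then 7.27 and 6.76 CPM, and at 8.49 CPM in the library labelled siUsf2 3 (log2 fold change -2.42, SE 0.16, edgeR adjusted p = 1.49e-11). All 3 siUsf2 libraries were far below siControl for both genes.

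Srl (ENSMUSG00000022519, chromosome 16, 4480216 to 4541816, minus strand), sarcalumenin, a luminal glycoprotein that binds calcium and supports the pump, went from 348, 331 and 420 CPM to 96.9 and 117 CPM, with 131 CPM in the library labelled siUsf2 3 (log2 fold change -1.79, SE 0.11, edgeR adjusted p = 4.88e-11). Casq1, the calsequestrin of fast fibres, was nearly absent from these cells, with 15, 14 and 11 counts in siControl and 1 and 8 counts in siUsf2 1 and 2, with 2 in the library labelled siUsf2 3 (log2 fold change -1.48, SE 0.75, edgeR adjusted p = 0.219). Per kilobase of merged exons, Casq2 stood at 51.6 ± 7.65 CPM and Casq1 at 0.429 ± 0.102 CPM in siControl (SD, n = 3 each), so the cardiac form made up nearly all calsequestrin transcripts here.

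For 3 of the genes that fell furthest, and for Itpr3 as a member that rose, the DNA before the RefSeq transcription start is printed below (RefSeq, GRCm38.p6, which is mm10, 5′ to 3′ on the gene's strand), to show which E-boxes it holds. Capitals mark CANNTG, the general E-box, searched on both strands. The run ends before the annotated gene start.
Cacna1s, chr1:136052561-136052749, plus strand: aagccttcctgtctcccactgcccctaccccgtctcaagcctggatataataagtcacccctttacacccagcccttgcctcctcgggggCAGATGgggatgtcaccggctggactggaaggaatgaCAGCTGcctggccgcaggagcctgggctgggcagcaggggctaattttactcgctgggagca
Casq2, chr3:102086165-102086414, plus strand: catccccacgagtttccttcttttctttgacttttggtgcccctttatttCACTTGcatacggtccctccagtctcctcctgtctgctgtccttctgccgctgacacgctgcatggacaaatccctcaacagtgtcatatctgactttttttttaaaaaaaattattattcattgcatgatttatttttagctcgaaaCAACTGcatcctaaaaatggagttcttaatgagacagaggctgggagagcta
Hrc, chr7:45335019-45335268, plus strand: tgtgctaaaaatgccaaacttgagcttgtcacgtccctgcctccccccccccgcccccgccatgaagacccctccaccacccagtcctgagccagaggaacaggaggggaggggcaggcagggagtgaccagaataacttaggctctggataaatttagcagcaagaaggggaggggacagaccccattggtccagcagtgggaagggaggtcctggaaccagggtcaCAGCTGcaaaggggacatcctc
Itpr3, chr17:27057054-27057303, plus strand: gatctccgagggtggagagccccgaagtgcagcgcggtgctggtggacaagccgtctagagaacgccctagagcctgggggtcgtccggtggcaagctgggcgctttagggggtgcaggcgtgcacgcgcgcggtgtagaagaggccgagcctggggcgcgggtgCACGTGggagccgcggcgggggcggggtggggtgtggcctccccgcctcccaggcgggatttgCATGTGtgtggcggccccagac
RefSeq windows of 250 bases were at hand for 21 of the 34 genes (25 windows, since a gene can have several starts). CACGTG, the E-box form preferred by USF proteins, was present in 0 of the 13 windows of genes called lower and in 4 of the 12 windows of the other members (Itpr3, Sypl2 and 2 windows of Mtm1), against 6.02% of all 32851 windows. CAGCTG, a form bound by myogenic factors, was present in 6 of the 13 windows and 3 of the 12, against 4271 of all 32851 windows (13%). Any CANNTG, of which both forms are special cases, was in 8 of 13 and 10 of 12, against 66.2%, and the MEF2 motif was in 1 of 13, that of Casq2, against 2.92%. The windows of a gene can overlap: both Jph2 windows hold 1 and the same CAGCTG, and the 2 Mtm1 windows with CACGTG share 1 site, so windows are not independent. These matches describe letters in a short window, not sites in use.

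The calcium pumps differed among themselves. Atp2a1 (ENSMUSG00000030730, chromosome 7, 126445858 to 126463108, minus strand), SERCA1 of fast muscle, stood at 114, 114 and 125 CPM in siControl, 45.8 and 53.3 CPM in siUsf2 1 and 2 and 88.7 CPM in the library labelled siUsf2 3 (log2 fold change -1.26, SE 0.10, edgeR adjusted p = 1.19e-10). Atp2a2 (ENSMUSG00000029467, chromosome 5, 122453513 to 122502225, minus strand), SERCA2 of heart, slow muscle and most other cells, stood at 428, 410 and 423 CPM against 352 and 365 CPM, with 424 CPM in the library labelled siUsf2 3, and narrowly missed the threshold (log2 fold change -0.24, SE 0.08, edgeR adjusted p = 0.0564). Settings under which it passed include DESeq2 (adjusted p = 0.0196), limma-voom (0.0468), its pseudogene Gm30970 added (0.0358), and leaving out siControl 3 (0.0268), at log2 fold changes between -0.25 and -0.23. Gm30970 had 0 counts in the library labelled siUsf2 3. With it added, Atp2a2 stood at 464, 447 and 464 CPM in siControl and 380 and 399 CPM in siUsf2 1 and 2. The library labelled siUsf2 3, at 424 CPM, then lay below every siControl library. Atp2a3, SERCA3 of blood and endothelial cells, fell from a low level of 8.05, 6.62 and 6.44 CPM to 2.66 and 2.61 CPM, with 5.56 CPM in the library labelled siUsf2 3 (log2 fold change -1.42, SE 0.25, edgeR adjusted p = 2.33e-04).

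The Atp2a1 to Atp2a2 count ratio was 0.266, 0.279 and 0.296 in siControl, but 0.130 and 0.146 in siUsf2 1 and 2, with 0.209 for the library labelled siUsf2 3, without overlap (difference in mean log2 ratio -1.02, exact permutation p = 0.1, adjusted 0.225). These ratios leave out the counts of Gm30970. Annotated exons of Atp2a1 overlap those of Rabep2 on the opposite strand. Rabep2 held 1771 counts over the 6 libraries against 7557 for Atp2a1, and the strand setting is not given. Pump regulators were essentially not read: sarcolipin (Sln) had 2 and 1 counts in siControl 2 and siUsf2 2 and 0 elsewhere, and phospholamban (Pln) had 3 counts or fewer in every library. A count of 0 allows up to 0.169 CPM in the deepest library and 0.879 CPM in the library labelled siUsf2 3, by counting error alone. Both genes, and Sypl2, were too low to be tested, and no direction was detectable at this depth.

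The TRIC channels carry potassium into the store to balance the charge of released calcium. Tmem38a (ENSMUSG00000031791, chromosome 8, 72572055 to 72587282, plus strand), TRIC-A of excitable tissue, stood at 84.4, 83.9 and 81.9 CPM in siControl, 23.3 and 21.5 CPM in siUsf2 1 and 2 and 34.9 CPM in the library labelled siUsf2 3 (log2 fold change -1.91, SE 0.11, edgeR adjusted p = 3.54e-14). By p it ranked 10 of 17217 genes, the highest place among the 31. Tmem38b, TRIC-B of most tissues, fell by less, from 96.7, 93.8 and 109 CPM to 66.5 and 68.8 CPM, with 77.3 CPM in the library labelled siUsf2 3 (log2 fold change -0.58, SE 0.10, edgeR adjusted p = 9.9e-05). Their ratio dropped from 0.873, 0.895 and 0.750 to 0.350 and 0.312, with 0.451 in the library labelled siUsf2 3 (difference in mean log2 ratio -1.34, exact permutation p = 0.1, adjusted 0.225).

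**Figure D3:**
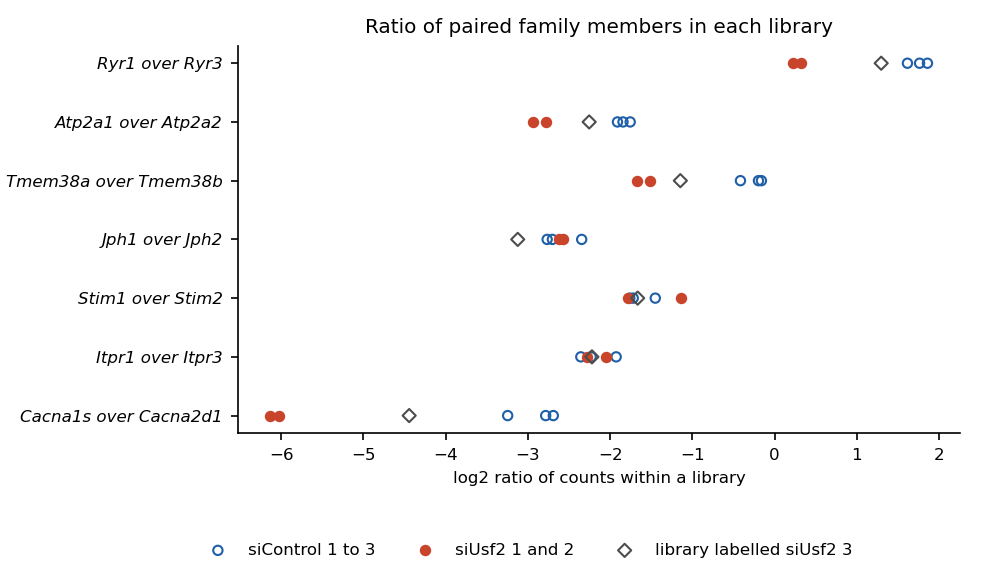
Log2 ratio of counts of 2 related genes within each library, for 7 pairs whose members had enough counts; symbols as in the plot of levels by library. siUsf2 1 and 2 lie below every siControl library for Ryr1 over Ryr3, Atp2a1 over Atp2a2, Tmem38a over Tmem38b and Cacna1s over Cacna2d1, and overlap siControl for the other 3 pairs.

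Genes that shape the transverse tubule did not move together. Bin1, amphiphysin 2, which curves the tubule membrane, was at 254, 258 and 222 CPM in siControl and 196 and 184 CPM in siUsf2 1 and 2 (log2 fold change -0.38, SE 0.09, edgeR adjusted p = 0.00479). Leaving out siUsf2 2 took this call away (adjusted p = 0.0998). In the library labelled siUsf2 3 it was at 452 CPM, far above every other library, and with all 6 libraries the fold change turned to 0.13 (SE 0.36, edgeR adjusted p = 0.917). Mtm1, myotubularin, a lipid phosphatase, was low and did not pass, at 9.26, 7.06 and 10.4 CPM against 11.5 and 10.8 CPM, with 7.03 CPM in the library labelled siUsf2 3 (log2 fold change 0.30, SE 0.19, edgeR adjusted p = 0.331). Sypl2 (mitsugumin 29), a tubule protein of mature muscle, had 4 counts in siControl 1 and 0 in the other 5 libraries.

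Of the 6 contrast genes, for store entry and IP3 receptors, 2 fell, 2 rose and 2 did not pass, with a median log2 fold change of 0.06 (over all genes tested, 6.4% fell and 4.97% rose). Store-operated entry is run by STIM proteins, which sense an empty store, and ORAI channels, which then admit calcium from outside. Stim2 was lower, at 85.5, 98.5 and 92.2 CPM against 65.8 and 76.5 CPM, with 75.6 CPM in the library labelled siUsf2 3 (log2 fold change -0.38, SE 0.10, edgeR adjusted p = 0.00927), until siControl 2 (adjusted p = 0.0528) or siUsf2 1 (0.317) was left out. Orai1 went from 21.5, 24.9 and 16.2 CPM to 13.0 and 15.9 CPM, with 19.0 CPM in the library labelled siUsf2 3 (log2 fold change -0.54, SE 0.17, edgeR adjusted p = 0.0323). Its call is fragile, since it ended with DESeq2 (adjusted p = 0.0722) and limma-voom (0.0564) and without siControl 1 (0.131), siControl 2 (0.199) or siUsf2 1 (0.306). Stim1 overlapped between groups, at 31.2, 29.1 and 28.0 CPM against 29.8 and 22.2 CPM with 23.7 CPM in the library labelled siUsf2 3, and did not pass (log2 fold change -0.19, SE 0.13, edgeR adjusted p = 0.380).

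All 3 IP3 receptor genes, which encode release channels of most cell types, were higher in siUsf2 1 and 2 than in any siControl library. Of the 3, 2 passed, where 21.8% of all genes tested lay above in that way and 4.97% were called higher. Itpr3 (ENSMUSG00000042644, chromosome 17, 27057304 to 27122223, plus strand) rose from 122, 113 and 105 CPM to 145 and 140 CPM, and the library labelled siUsf2 3 held 182 CPM (log2 fold change 0.32, SE 0.09, edgeR adjusted p = 0.0187). Itpr2 rose from 63.7, 54.8 and 75.2 CPM to 86.4 and 79.4 CPM, with 75.0 CPM in the library labelled siUsf2 3 (log2 fold change 0.35, SE 0.11, edgeR adjusted p = 0.0409). Itpr1 did not pass, at 26.0, 22.0 and 27.7 CPM against 29.8 and 33.6 CPM, with 39.0 CPM in the library labelled siUsf2 3 (log2 fold change 0.31, SE 0.13, edgeR adjusted p = 0.104), though it did when siControl 3, for one, was left out (adjusted p = 0.0162). These increases are small, and the calls rest on both siUsf2 libraries: Itpr3 lost its call without siUsf2 1 (adjusted p = 0.195) or siUsf2 2 (0.109), and Itpr2 with DESeq2 (0.0736) and without siControl 1 (0.149), siControl 2 (0.197), siUsf2 1 (0.235) or siUsf2 2 (0.0639).

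Mcu, the pore of mitochondrial calcium uptake, held steady levels between libraries, at 53.1, 53.4 and 52.3 CPM in siControl, 48.7 and 47.5 CPM in siUsf2 1 and 2 and 50.7 CPM in the library labelled siUsf2 3. Its groups did not overlap, but the difference did not pass (log2 fold change -0.15, SE 0.10, edgeR adjusted p = 0.359).

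**Figure D4:**
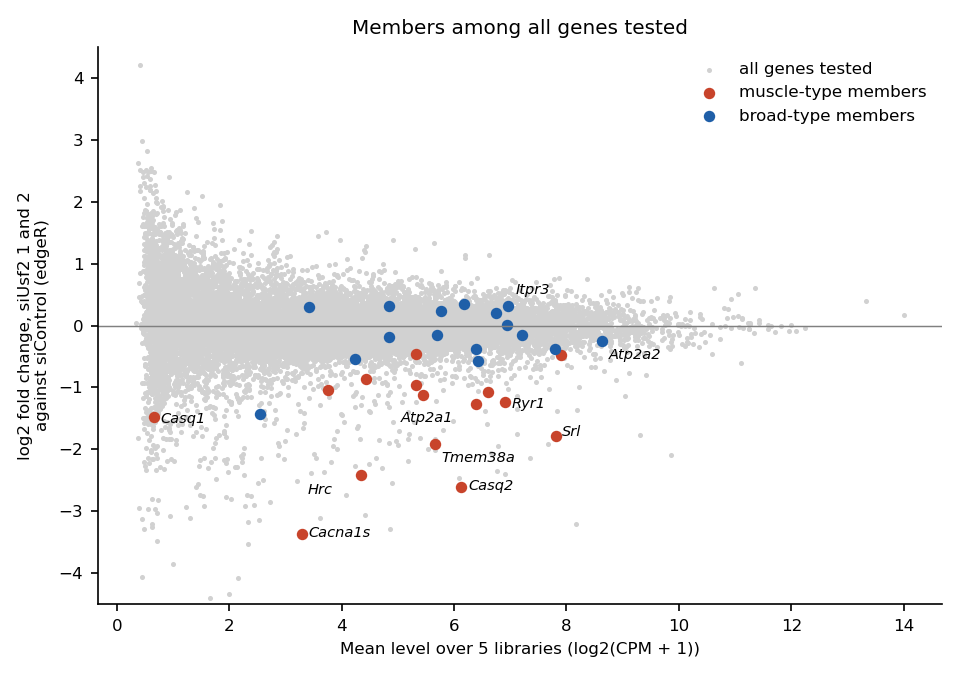
Mean level (log2(CPM + 1)) against log2 fold change in the 5 libraries for all 17217 genes tested (grey), with muscle-type members in red and broadly expressed members in blue; 1 gene lies outside the axis. Red points lie below 0, down to -3.37 for Cacna1s, while blue points lie on both sides of 0.

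Set on a common scale per kilobase of merged exons, the highest members in siControl were Cacng1 at 104 ± 8.64 CPM, Atp2a2 at 69.2 ± 1.50 CPM, Srl at 68.8 ± 8.93 CPM, Jph2 at 63.6 ± 8.20 CPM and Bin1 at 59.4 ± 4.73 CPM (SD, n = 3 each). Cacng1 stood well above the others, and the libraries of Atp2a2, Srl and Jph2 overlapped, as did those of Srl, Jph2 and Bin1. In siUsf2 1 and 2, Atp2a2 led at 59.0 ± 1.50 CPM per kilobase, Cacng1 followed at 49.5 ± 4.33 CPM, and Srl was sixth in order at 20.1 ± 2.66 CPM (SD, n = 2 each). Casq2 moved from place 6 of 34 to place 14, at 8.58 ± 1.02 CPM per kilobase, and Hrc from 13 to 24, at 2.74 ± 0.140 CPM. Fkbp1a, without the counts of its pseudogene, stood at place 10 in siControl and 5 in siUsf2 1 and 2, and Itpr3 at 15 and 9.

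With the groups as labelled, all 6 libraries, 30 members were tested, no member rose and Hrc fell (log2 fold change -2.35, SE 0.18, edgeR adjusted p = 0.0490). The Hrc call was lost whenever any library other than the one labelled siUsf2 3 was left out, and without that one 19 members fell and 2 rose. Over all 16662 genes tested, 0.042% were called lower and 0% higher by edgeR, with 867 genes lower and 886 higher at an unadjusted p below 0.05. Without adjustment, 14 members were lower and 3 higher at p below 0.05. DESeq2 called 11 members lower and 0 higher, and 440 lower and 290 higher over all 29434 genes with counts. The median log2 fold change of the 30 was -0.44, against -0.01 over all genes. Next to Hrc came Srl (-1.71, SE 0.15, edgeR adjusted p = 0.0550) and Tmem38a (-1.70, SE 0.18, edgeR adjusted p = 0.0694), just short of the threshold. Cacna1s was at -2.69 (SE 0.54, edgeR adjusted p = 0.172), Casq2 at -2.18 (SE 0.34, 0.114), Atp2a1 at -0.96 (SE 0.24, 0.251) and Ryr1 at -0.90 (SE 0.27, 0.321).

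In the library labelled siUsf2 3, which the 5-library test did not use, 14 of the 19 genes called lower lay below every siControl library in CPM, 2 lay within and 3 (Stac3, Jph2 and Bin1) lay above. Stac3 rests there on 66 counts (95% counting interval 14.9 to 24.6 CPM, which covers siControl). Jph2 was only just above siControl 2, at 305 against 297 CPM, a place that can change with scaling. The 19 genes were picked as low against the same siControl libraries, so the count of 14 is a description and not independent support. Of all genes tested, which were not picked in that way, 42.8% lay below every siControl library there and 38.5% above, so a place outside the siControl range was common in that library. For 12 of the 14 its level fell between siControl and the pair siUsf2 1 and 2. Over the 31 tested genes its median log2 ratio to the siControl mean was -0.29, and it was -1.49 over the 4 luminal buffers, 0.63 over the 3 IP3 receptors and -0.08 over the 5 voltage sensor subunits.

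The wider calcium-handling list, 76 further genes in the table such as other calcium channels, plasma membrane pumps, calmodulins, mitochondrial uptake subunits and calcineurin, held 55 tested in the 5 libraries, of which 7 fell, 5 rose and 43 missed the threshold (over all genes tested, 6.4% were lower and 4.97% higher), and their median was -0.003 on the log2 fold change scale. The number lower was 4 without siUsf2 1, and the number higher was 12 without siControl 3. With all 6 libraries edgeR called 0 of the 55 in either direction, with 7 lower and 5 higher at an unadjusted p below 0.05. Ank1, ankyrin 1, a membrane adaptor, stood at 111 ± 9.18 CPM in siControl against 66.5 ± 3.21 CPM for siUsf2 1 and 2 (± is the SD over 3 and 2 libraries), a log2 difference of -0.75 (SE 0.10, edgeR adjusted p = 1.71e-06). Scn4a, the sodium channel that carries the muscle action potential, was at -2.21 (SE 0.37, edgeR adjusted p = 1.19e-04) from 4.99 ± 1.24 CPM, and Camk2a, a calmodulin-dependent kinase, at -0.77 (SE 0.16, edgeR adjusted p = 0.00171). Rcan2, a calcineurin regulator, rose from 23.5 ± 1.31 to 43.0 ± 0.874 CPM (0.86, SE 0.11, edgeR adjusted p = 2.34e-06). Atp2b4, a plasma membrane calcium pump, rose from 231 ± 25.1 to 342 ± 7.03 CPM (0.56, SE 0.09, edgeR adjusted p = 7.5e-05). Cacna1c, the cardiac counterpart of Cacna1s, had 2, 3 and 3 counts in siControl and 12 and 6 counts in siUsf2 1 and 2, too few to be tested.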

How the data were processed

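RNA sequencing libraries of C2C12 cells, 3 siControl and 3 siUsf2, were grouped by sample title. The deposited table holds whole-number read counts per Ensembl gene, which the authors did not normalize. Per the submitters' processing notes the build was mm10 and the tools FastQC, Trimmomatic, HISAT2, featureCounts and DESeq2, with no version, role or strand setting given in the sources used here. Of the deposited tables, the one scaled per library was not used. Symbols, positions and merged exon lengths came from GENCODE M21 (GRCm38, the assembly also called mm10), in which 52133 of 55414 identifiers were found.

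CPM is the count over the library total, times 1000000. The test was edgeR 4.0.16 in R 4.3.3 (filterByExpr, TMM, robust quasi-likelihood, two-sided, Benjamini-Hochberg over all genes tested, called below 0.05). Alternatives were other normalizations, DESeq2 1.42.0, limma 3.58.1 (voom, or log2(CPM + 1) and log2(CPM + 0.1)), other filters, an adjusted p below 0.01, a replicate block, each library left out, and processed pseudogene counts added to parents (matched by minimap2 2.31 over 150 bases or more, with identity from 90% and coverage from 50%). The log2 ratios of pairs used counts plus 0.5. Replicate pairs differed by more than counting noise (chi-square per degree of freedom 4.38 or more without the library labelled siUsf2 3), so none was merged. The test was also run on simulated counts, with changes placed only in genes of higher counts. Every gene and library there had the same spread, taken from the real fits (coefficient of variation 9.25% with 5 libraries, 40.0% with 6). The 5-library test found 74% of 1.5-fold and 100% of 2-fold changes there, and the 6-library test 0% and 10%. In the real data the spread was uneven, with chi-square per degree of freedom 103 for siUsf2 1 against the library labelled siUsf2 3. These shares may therefore not carry over to the real libraries.

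The members, roles, classes, lists, pairs and the use of 5 libraries were chosen with earlier results of these data known. Genes named are all members, Usf2, the 6 called genes of the wider list with the smallest p (1 of them is not reported here), Ryr2 and Cacna1c. The printed promoters were chosen after seeing values. The marker lists were myoblast and muscle precursor, muscle differentiation, cardiomyocyte, smooth muscle, neuron, fibroblast, macrophage and endothelial.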

Additional observations from a re-analysis of the deposited data

How the results depend on the processing

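Of the 21 members called in the 5 libraries, 15, each lower, kept direction and call under each of the 16 alternatives that used those libraries. The number of members called lower was 19 with RLE, library-size and upper-quartile normalization, and 16 to 20 with each library left out. Over all genes, upper-quartile normalization moved the share of higher calls from 43.7% to 55.5%, with 19 members lower and 2 higher. The number of members higher was 1 with DESeq2, 0 at an adjusted p below 0.01, and 0 to 5 with each library left out. With each library left out, the wider list gave 4 to 9 lower and 4 to 12 higher.

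With all 6 libraries, the number of members called lower was 11 with DESeq2 (440 of 29434 over all genes) and 5 with limma-voom (87 of 16662). It was 4 with no filter on low counts (104 of 29434) and 6 with pseudogene counts added to parents (155 of 14833). It was 0 with RLE, library-size or upper-quartile normalization, with limma on log2(CPM + 1) or log2(CPM + 0.1), and at an adjusted p below 0.01. The edgeR fit with TMM had 14 members lower at an unadjusted p below 0.05. With each library left out it ranged from 0 to 19, the 19 arising without the library labelled siUsf2 3, and the number higher from 0 to 2. Signs turned for Fkbp1a, whose log2 fold change of 0.01 was -0.018 with its pseudogene added and ranged from -0.074 to 0.099 with each library left out, and for Bin1, at 0.13 with all 6 libraries. The cause was not tested.

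The replicate numbers share no source in the labels, and deviations of same-numbered libraries from their group means did not go together (r = -0.00304 and 0.00204 across genes in the 5 libraries). A replicate block in the 5 libraries gave 20 members lower, with Atp2a2 passing (adjusted p = 0.0103). It gave 5 higher, with Ryr3 (0.0106), Asph (0.0346) and Itpr1 (0.00874) passing, and 12 lower and 14 higher in the wider list. In that fit siControl 3 stood alone in its block and so could not inform the comparison. Leaving out siControl 3 also gave 20 members lower and 5 higher, so the block was not a separate check. With all 6 libraries the block gave 0 members lower. Low depth limits Sln, Pln, Sypl2, Casq1 and, in the library labelled siUsf2 3, all genes of a few CPM.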
